A study of Drosophila melanogaster with 17 samples.

Results

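The genes described here are those of the fourth chromosome, the smallest, of Drosophila melanogaster, in mRNA-seq libraries of the larval central nervous system (CNS) in which Smn, the survival motor neuron gene, was lowered. A list of 43 gene names, all from that chromosome, defined them. Of these names, 41 were found among the 13872 genes of the counts, and the other 2 (Gat and Arl4) were not present under those symbols. All 41 genes were placed on chromosome 4 by the BDGP6 annotation, which puts 38 further genes of the counts there, for 79 in all. The list rests on location and on presence in the counts, but it was drawn up with results of these libraries known, so the counts of changed genes below describe the list and support nothing further.

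The fourth chromosome of Drosophila is a dot-like autosome on which heterochromatin marks such as methylated histone H3 lysine 9 and HP1a are spread among active genes. Most of its genes are nevertheless transcribed at ordinary levels, and a chromosome-specific protein, Pof, binds nascent transcripts along it and raises their output, while egg (the fly SETDB1) methylates its chromatin. Many of its genes act in neurons, among them calcium sensors and priming factors for vesicle release, axon guidance receptors and the Pax6 genes ey and toy.

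The study asked how neuronal gene expression changes when Smn is lowered. Each library was made from a separate pool of CNS of larvae of the third instar in a w background, and all larvae carried the elav-GAL4 driver, which is active in post-mitotic neurons. WT larvae carried the driver with a UAS-PWIZ control insertion. C24 larvae carried the driver with a UAS hairpin against Smn (C24), so that the knockdown was neuronal whereas the dissected tissue also held glia and precursors. X7/C24 larvae had the same hairpin and driver and, in every cell, SmnX7, which deletes Smn from 1 of the homologs. The comparisons used 3 pools a group, namely WT_4 to WT_6 and C24_5 to C24_7 from the second sequencing round and X7/C24_1 to X7/C24_3 from the third round, so that for X7/C24 the genotype and the round cannot be told apart. The genotype tags of the C24 libraries carry numbers that rise from library to library, while their titles all read C24, and the titles were followed.

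The 9 compared libraries held 16800165 to 28339670 counts on genes, and the 17 libraries 7883183 to 28339670. Smn itself stood at 64.7 ± 2.85 CPM (counts scaled to a common library size with TMM factors; mean ± SD, n = 3) in WT, 58.0 ± 6.79 in C24 and 29.1 ± 0.656 in X7/C24. It was 0.449 times the WT level in X7/C24 (log2 fold change -1.15, SE 0.0558, adjusted p = 1.05e-05) and did not pass the test in C24 (log2 fold change -0.16, SE 0.0952, adjusted p = 0.741). Adjusted p-values are those of the quasi-likelihood test of edgeR with Benjamini-Hochberg adjustment over all tested genes, and a gene was called changed below 0.05. X7/C24_4, which the study set aside for its many duplicate reads, was kept out of the comparisons. The 7 libraries of a pilot round were also left out and are described apart.

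The 41 listed genes of chromosome 4 were well expressed in the CNS. Their median WT level was 420.3 CPM, against 37.5 CPM over all tested genes, and 35 of the 41 exceeded 100 CPM. Their transcripts were also long, and the median exon length was 5357 bp against 2160 bp. Per kilobase of exon the medians were 73.7 CPM for the 41 genes and 17.7 CPM for all tested genes. ATPsyn-beta, the catalytic subunit of the mitochondrial ATP synthase, led this length-scaled order at 483 CPM per kb in WT, followed by CaMKII (calcium/calmodulin-dependent kinase II) at 173, gw (GW182, of microRNA silencing) at 165 and eIF4G (a translation initiation factor) at 145. At the low end were bt, which encodes the muscle protein projectin, at 1.06 CPM per kb, and yellow-h at 2.55. All 41 genes had at least 10 counts in each of the 9 libraries, with 65 the lowest count, so none was lost to the filter on low counts.

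Most of the 41 genes stood higher in X7/C24_1 to X7/C24_3 than in WT. The share of all counts that fell on them was 2.15%, 2.13% and 2.01% in the WT libraries, 2.29%, 1.99% and 2.32% in C24, and 2.28%, 2.42% and 2.25% in X7/C24. All 3 of these X7/C24 shares lay above all 3 WT shares, whereas the C24 shares lay on both sides of them. In X7/C24_4, kept out of the comparisons, the share was 1.67%, below all 3 WT shares. The ratio of the X7/C24 mean share to the WT mean was 1.10. It was 1.11 over all 79 chromosome 4 genes. The 95% Wilson intervals of these shares were no wider than 0.0143 percentage points and cover counting error only. Of the 41 genes, 37, 39 and 38 exceeded their WT mean in X7/C24_1, X7/C24_2 and X7/C24_3, but 10 did so in X7/C24_4. In C24 these numbers were 39 in C24_5, 15 in C24_6 and 40 in C24_7, so C24_6 stood apart from C24_5 and C24_7. In the pilot libraries C24_1 to C24_4 they were 2, 14, 10 and 17. In bulk tissue, more cells of a type and more RNA per cell cannot be told apart.

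**Figure D1:**
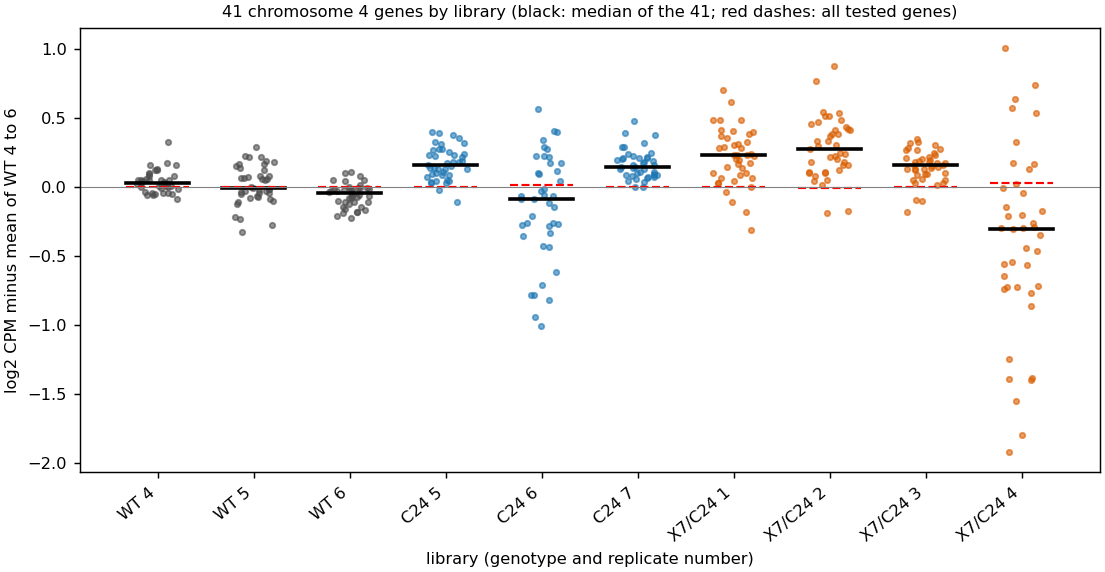
Level of each of the 41 genes in each library of the second and the third sequencing rounds, as log2 CPM minus the mean of WT_4 to WT_6 (vertical axis, log2 units). Points are genes, black lines the median of the 41 genes and red dashes the median of all tested genes. The medians of the 41 genes were 0.23, 0.28 and 0.16 in X7/C24_1 to X7/C24_3, and -0.31 in X7/C24_4.

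Between X7/C24 and WT, 20 of the 41 genes were called higher and 1, ey, lower. Over all 9657 tested genes 42.3% were called, 21.2% higher and 21.2% lower. The median log2 fold change of the 41 genes was 0.20, or 1.15-fold, against -0.00 over all tested genes, with single values from -0.18 to 0.59 and a median SE of 0.0734. Values were positive for 38 genes and negative for 3. The 3 X7/C24 libraries lay above the 3 WT libraries without overlap for 26 genes and below for 1, where 26.3% and 27.1% of all genes did so. These counts depended on the library X7/C24_4: with it in the fit none of the 41 genes was called by edgeR in either direction (4.63% of all genes were called higher and 3.27% lower) and the median was 0.08. The values of that library are given with transcript length.

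Among the genes grouped under synapse, channels, transporters and membrane, 9 of 10 were called higher in X7/C24 than in WT, where 21.2% of all genes were. The group median was 0.34, and none of the 10 was called once X7/C24_4 was included. Gat and Arl4, absent as symbols, would also fall under this role but were not counted. The row of Gat had a log2 fold change of -0.12 and was not called, and that of Arl4 had 0.43 and was called. PMCA, the plasma membrane calcium pump, had a log2 fold change of 0.20 (adjusted p = 0.0580). Syt7 (FBgn0039900, chromosome 4 from 278685 to 306481 in BDGP6) encodes synaptotagmin 7, a calcium sensor for vesicle fusion. Syt7 was at 191, 248 and 175 CPM in WT, at 267, 269 and 252 in C24, and at 329, 344 and 254 in X7/C24. Every X7/C24 value lay above every WT value, and the C24 values also did so, with X7/C24_3 at the C24 level. Its log2 fold change in X7/C24 was 0.59 (SE 0.150, adjusted p = 0.0135), the largest of the 41. Arf102F is a small GTPase of the Arf family that acts in membrane traffic. The Arf102F values were 88.3, 106 and 80.5 CPM in WT, 101, 135 and 96.7 in C24, and 139.7, 130.2 and 116 in X7/C24. All X7/C24 values exceeded those of WT (log2 fold change 0.49, SE 0.108, adjusted p = 0.00775), while C24_6 reached the X7/C24 range. CG11155 encodes a predicted kainate-type glutamate receptor subunit. In WT CG11155 had 497, 580.0 and 481 CPM, in C24 609.5, 586 and 572, and in X7/C24 726, 723 and 639.5. These X7/C24 values were above the WT and C24 values given (log2 fold change 0.42, SE 0.0897, adjusted p = 0.00653). X7/C24_4 was at 582 CPM for CG11155.

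CaMKII, a kinase of synaptic plasticity, was called higher although its groups overlapped. Levels of CaMKII were 758, 921 and 695 CPM in WT, 975, 920.0 and 921 in C24, and 1104, 1141 and 879 in X7/C24. X7/C24_3 lay below WT_5, and the log2 fold change was 0.39 (SE 0.130, adjusted p = 0.0386). Caps, the calcium-dependent activator protein for secretion, acts in the release of dense-core vesicles. Caps was at 697, 739.6 and 661 CPM in WT, at 822, 668 and 824 in C24, and at 914, 910.4 and 828 in X7/C24. Each of these X7/C24 values exceeded the WT and C24 values given (log2 fold change 0.34, SE 0.0707, adjusted p = 0.00616). X7/C24_4 was at 550 CPM for Caps. unc-13 primes synaptic vesicles for fusion and has the second longest exon length of the list, at 22598 bp. The unc-13 values were 1775, 1574 and 1648 CPM in WT, 1699, 1019 and 1922 in C24, and 2038, 2214 and 2075 in X7/C24. These X7/C24 values were above the WT and C24 values given, and C24_6 was far below C24_5 and C24_7 (log2 fold change 0.34, SE 0.0717, adjusted p = 0.00638). X7/C24_4 was at 636 CPM for unc-13. The remaining called genes of the group were CG32000, a predicted cation-transporting ATPase, with a log2 fold change of 0.31, Asator, of the tau tubulin kinase family, with 0.24, and Ank, an ankyrin, with 0.17 and an adjusted p of 0.04995 next to the threshold. Of 8 neuronal markers 2 were called higher, near the 21.2% of all genes. Their summed level was 4656 to 4777 CPM in WT, 4005 to 5066 in C24, 5082 to 5666 in X7/C24 and 3098 in X7/C24_4. The largest term was elav, at 2129 CPM in WT and not called (adjusted p = 0.0737). None of 6 glial markers was called. Neuroblast markers had 5 of 6 called lower and 1 higher, where 21.2% of all genes were called in each direction. Their sum was 781 to 789 CPM in WT, 632 to 672 in X7/C24 and 724 in X7/C24_4. The part of these cell types in the result was not tested.

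**Figure D2:**
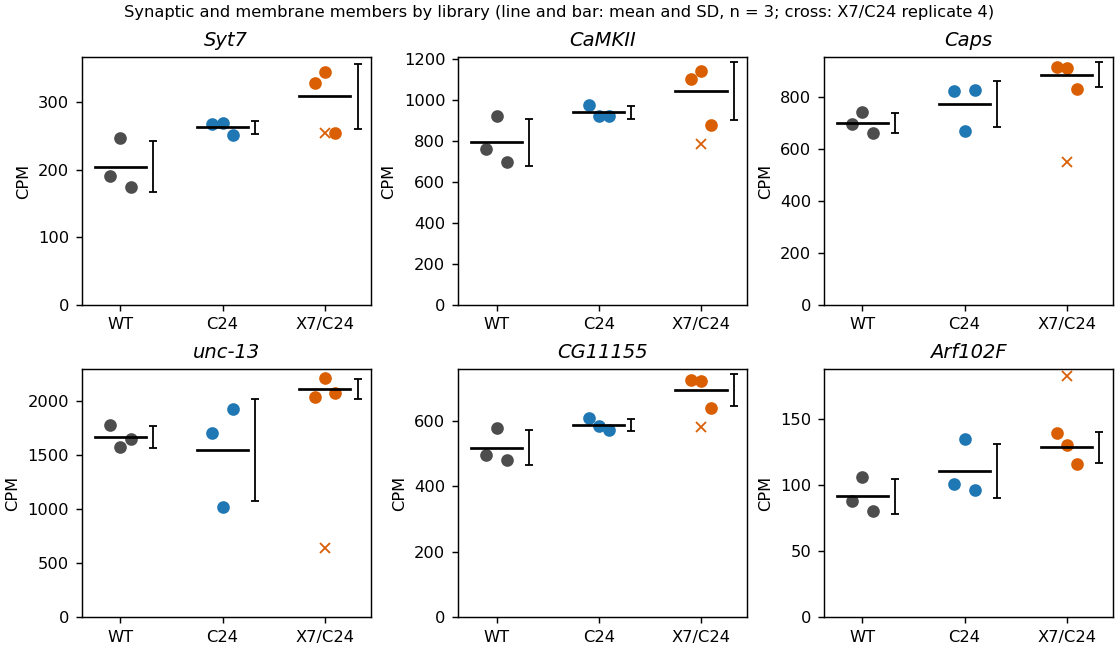
CPM of 6 synaptic and membrane genes in the WT, C24 and X7/C24 libraries (3 per group; each point is a library, the line is the mean and the bar the SD). The cross is X7/C24_4, which was not in the mean. In X7/C24 unc-13 was at 2038 to 2214 CPM and at 636 in X7/C24_4, whereas Arf102F was at 116 to 140 and at 183.

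Of the 7 genes of signalling and axon guidance, 5 were called higher in X7/C24 than in WT, where 21.2% of all genes were. The median of the 7 was 0.21. Crk encodes an SH2/SH3 adaptor that links receptors to the cytoskeleton. In WT Crk had 107, 129 and 99.1 CPM, in C24 126, 141 and 114, and in X7/C24 155, 159 and 135. The 3 X7/C24 values were above the WT values, with C24_6 between X7/C24_3 and X7/C24_1 (log2 fold change 0.42, SE 0.106, adjusted p = 0.0137). Eph is the single Eph receptor tyrosine kinase of the fly, a guidance receptor for axons. Levels of Eph were 590.0, 609 and 559 CPM in WT, 686, 561 and 646 in C24, and 751, 756 and 676 in X7/C24. C24_5 was above X7/C24_3, but none of these WT values reached the X7/C24 values given (log2 fold change 0.31, SE 0.0684, adjusted p = 0.00754). X7/C24_4 was at 507 CPM for Eph. Its ligand Ephrin had a log2 fold change of 0.14 and was not called (adjusted p = 0.0890). Among the plexins, receptors for semaphorins, plexB was called at a log2 fold change of 0.27 and plexA, at 0.15, was not (adjusted p = 0.110). The activin ligand Actbeta was at 227, 234 and 202 CPM in WT and at 252, 256 and 255 in X7/C24 (log2 fold change 0.20, SE 0.0649, adjusted p = 0.0337). Slip1, which encodes a protein that binds the Slowpoke potassium channel, was called at a log2 fold change of 0.21.

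The 17 transcription and chromatin genes were more divided, with 6 called higher and 1 lower in X7/C24 and a median of 0.14. Over all genes 21.2% were called in each direction. Those called higher were NfI, Mitf, Pur-alpha, pho, MED26 and ci. NfI is the fly nuclear factor I, a DNA-binding protein. NfI was at 225, 241 and 200.2 CPM in WT, at 267, 219.8 and 254 in C24, and at 278, 307 and 267 in X7/C24. These X7/C24 values lay above the WT and C24 values given, though C24_5 and X7/C24_3 differed by less than 1 CPM (log2 fold change 0.35, SE 0.0853, adjusted p = 0.0113). X7/C24_4 was at 181 CPM for NfI. Mitf is a helix-loop-helix factor of lysosomal and metabolic genes. The Mitf values were 118, 123 and 95.5 CPM in WT, 146, 147 and 129 in C24, and 148, 150.5 and 131 in X7/C24. In these libraries both C24 and X7/C24 were above WT without overlap, and they overlapped each other (log2 fold change 0.35, SE 0.0997, adjusted p = 0.0214). Pur-alpha, a single-stranded nucleic acid-binding protein, had the same pattern. In WT Pur-alpha had 122, 138 and 109.8 CPM, in C24 153, 138 and 146, and in X7/C24 164, 168 and 140.0. WT_5 and C24_6 differed by less than 1 CPM. Its log2 fold change in X7/C24 was 0.35 (SE 0.0992, adjusted p = 0.0212). The Polycomb group protein Pho binds DNA at Polycomb response elements. Levels of pho were 230.4, 269 and 214 CPM in WT, 287, 289 and 267 in C24, and 306, 316 and 267 in X7/C24. WT_5 overlapped X7/C24_3 and C24_7 for pho (log2 fold change 0.32, SE 0.0995, adjusted p = 0.0323). The Mediator subunit gene MED26 had a log2 fold change of 0.30, and ci, the transcription factor of Hedgehog signalling, one of 0.28.

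Neither of the Pax6 genes was called higher. ey (FBgn0005558, chromosome 4 from 697689 to 721173) acts in eye and mushroom body development. ey was at 88.9, 84.9 and 88.5 CPM in WT, at 86.3, 69.3 and 90.2 in C24, and at 77.3, 76.6 and 77.0 in X7/C24. The X7/C24 values were close together and below all WT values (log2 fold change -0.18, SE 0.0438, adjusted p = 0.0104), and ey was the only listed gene called lower. Its paralog toy had a log2 fold change of 0.08 and was not called (adjusted p = 0.194). Thd1, a predicted thymine DNA glycosylase, had the value nearest to 0 between X7/C24 and WT. The Thd1 values were 568, 419.8 and 549 CPM in WT, 518, 265 and 561 in C24, and 471, 514 and 546 in X7/C24. The groups overlapped, with a log2 fold change of -0.01 (SE 0.112), and C24_6 had the lowest value. Hcf, the host cell factor homolog, was at 637 to 661 CPM in WT and 659 to 693 in X7/C24, a log2 fold change of 0.07 (SE 0.0548). The Wnt pathway factors pan (TCF) and lgs (the fly BCL9) had log2 fold changes of 0.20 and 0.06, the zinc finger homeodomain gene zfh2 was at 0.09, onecut at 0.13, Sox102F at 0.14, and the forkhead gene fd102C at -0.16, none of them called. sv, the Pax2 homolog, had a log2 fold change of 0.33 and was not called (adjusted p = 0.0634), with X7/C24_3 at 23.5 CPM and WT_5 at 24.4.

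None of the 7 genes of translation, energy and protein turnover was called in X7/C24 against WT by edgeR or limma-voom. Over all genes edgeR called 21.2% in each direction. DESeq2 called 1 of the 7, and 1 had an unadjusted p under 0.05. Their median was 0.09, and all 7 values were positive. X7/C24 lay above WT without overlap for 2 of them, where 26.3% of all genes did so. ATPsyn-beta had the value nearest to 0 in this group. In WT ATPsyn-beta had 1126, 1212 and 1117 CPM, in C24 1182, 1341 and 1151, and in X7/C24 1238, 1190.5 and 1074. The groups overlapped, with a log2 fold change of 0.02 (SE 0.0741). On the same scale eIF4G was at 0.05, gw at 0.10, the proteasome shuttle gene Rad23 at 0.20, bt at 0.09 and Rfabg, the lipid carrier apolipophorin, at 0.04. yellow-h, of the yellow family, had the largest log2 fold change of the group at 0.47 but also the largest error (SE 0.217, adjusted p = 0.114). Levels of yellow-h were 3.69, 3.75 and 4.05 CPM in WT, 3.56, 4.16 and 3.99 in C24, and 5.06, 7.02 and 3.91 in X7/C24. X7/C24_2 was high for yellow-h and X7/C24_3 was inside the WT range.

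**Figure D3:**
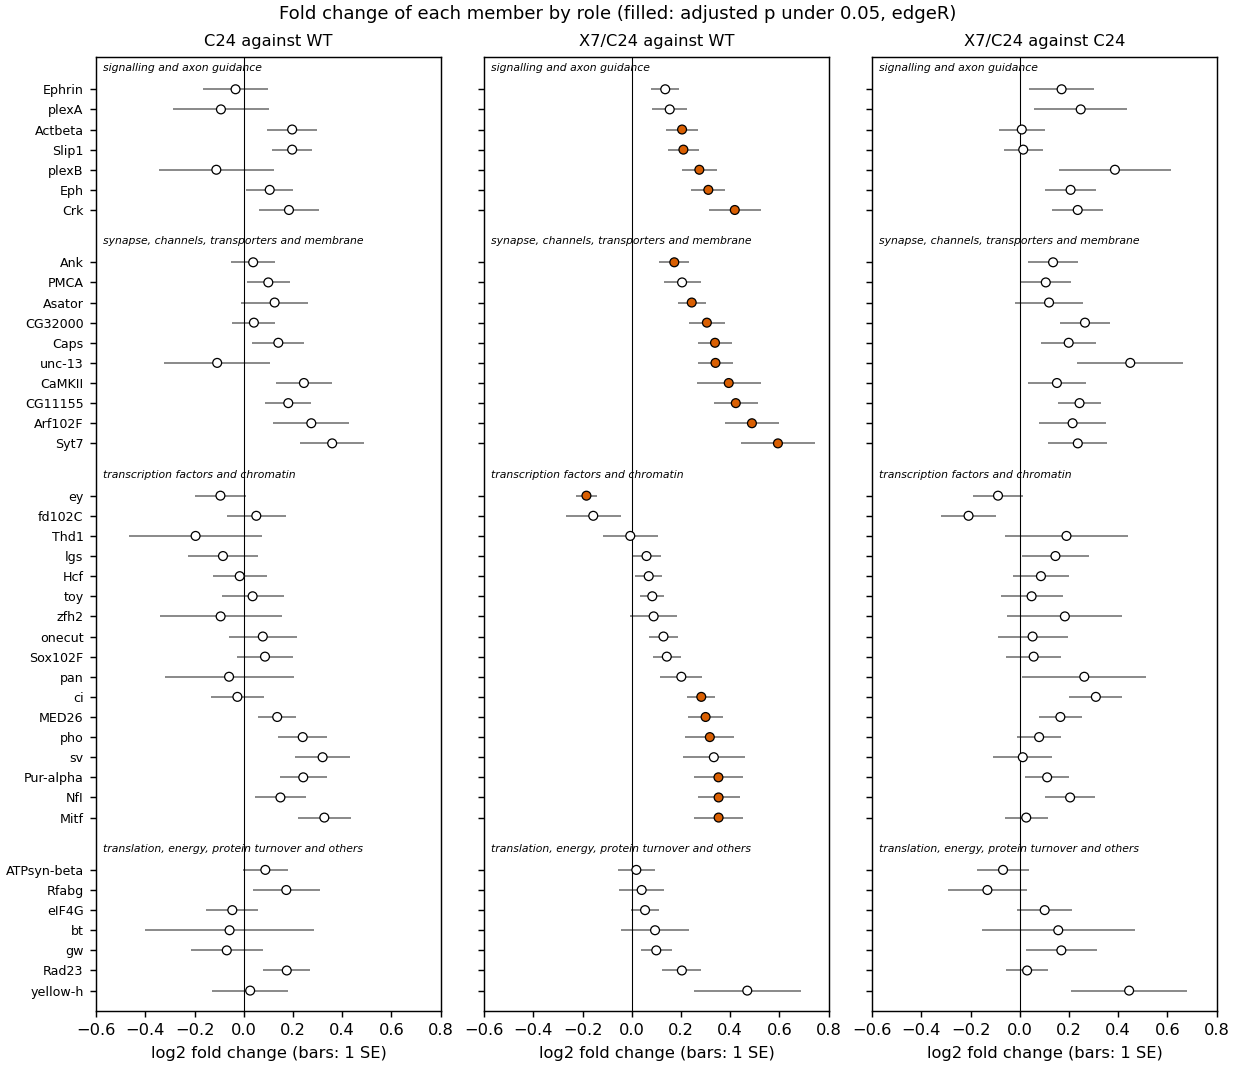
Log2 fold change of each of the 41 genes, grouped by role, in C24 against WT, X7/C24 against WT and X7/C24 against C24 (horizontal axis; points are fits over 3 libraries a group and bars are 1 SE). Filled points have an adjusted p under 0.05. In X7/C24 against WT these were 20 genes above 0 and ey below 0, and in the other comparisons there were none.

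C24 was set beside WT to ask what the neuronal hairpin alone did to these genes. None of the 41 was called in either direction by edgeR, DESeq2 or limma-voom, where edgeR called 0.394% of 9394 tested genes, 0.16% higher and 0.234% lower. The unadjusted p was under 0.05 for 6 of them. The median log2 fold change was 0.09 against -0.00 over all tested genes, with values from -0.20 (Thd1) to 0.36 (Syt7), 27 positive and 14 negative. Groups did not overlap, with C24 higher, for 6 genes (Syt7, Mitf, sv, Pur-alpha, Slip1 and MED26), and 6.67% of all genes behaved so. The reverse held for 0 genes, against 6.94%. The log2 fold change of Syt7 was 0.36 (SE 0.130, adjusted p = 0.589), that of Mitf 0.33 (SE 0.108, adjusted p = 0.542) and that of sv 0.32 (SE 0.111, adjusted p = 0.578). sv was at 21.4, 24.4 and 18.8 CPM in WT, at 27.8, 25.1 and 27.9 in C24, and at 26.5, 31.3 and 23.5 in X7/C24. The lowest C24 value of sv was above the highest WT value by less than 1 CPM. Both comparisons with WT share the same WT libraries, so likeness between them is no independent observation.

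The C24 values rested heavily on C24_6. Without it the median of the 41 genes was 0.16. With C24_6 and WT_5 both left out, as in the 2 against 2 comparison that the study used, the median was 0.18 and 8 genes were called higher, none lower, where 1.49% and 0.74% of all genes were. These 8 genes were Syt7, CaMKII, Caps, CG11155, Asator, Pur-alpha, pho and sv. Of these, 7 were among the 20 called between X7/C24 and WT, all but sv, from libraries that the comparisons share in part.

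Between X7/C24 and C24 none of the 41 genes was called by edgeR, DESeq2 or limma-voom, where edgeR called 13.5% of 9454 tested genes, 7.59% higher and 5.94% lower. The unadjusted p was under 0.05 for 3 genes (ci, CG11155 and CG32000). The median was 0.15 against 0.01 over all tested genes, with 37 values positive and 4 negative. X7/C24 lay above C24 without overlap for 10 genes, among them Caps, unc-13, CG11155, NfI, ci and plexB, and below for 0, where 17.6% and 19.8% of all genes did so. The largest log2 fold change was that of unc-13 at 0.45 (SE 0.216, adjusted p = 0.212), in which C24_6 was low. Without C24_6 the median was 0.04, and 4 genes (Arf102F, CG11155, Crk and ci) were called higher and ey lower, smaller shares than the 15.3% and 12.9% of all genes called in these directions. With X7/C24_4 added, the median was -0.00.

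The chromosome 4 genes outside the list are those that remained of the 79 annotated genes once the 41 were taken out, so the list also set their membership. They include the rows of Gat and Arl4. Of the 37 tested between X7/C24 and WT, 17 were called higher and 1, CG33521, lower, where 21.2% of all genes were called in each direction. Their median was 0.27. Over all 78 tested genes of the chromosome the median was 0.24, whereas the medians of the other arms were 0.00 for X, 0.01 for 2L, -0.01 for 2R, 0.01 for 3L and -0.03 for 3R. In C24 against WT the median of the other chromosome 4 genes was 0.12, with 0 of 36 called by edgeR or limma-voom (4 at an unadjusted p under 0.05, and DESeq2 called 1 higher and 1 lower) and arm medians from -0.04 on X to 0.02 on 2L. In X7/C24 against C24 it was 0.13, with 6 of 36 called higher, where 7.59% of all genes were. The absent symbol Arl4 has its row under CG2219, which was called at a log2 fold change of 0.43 (adjusted p = 0.00935), and Gat, the GABA transporter, has its row under CG1732, which had -0.12 and was not called (adjusted p = 0.381).

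**Figure D4:**
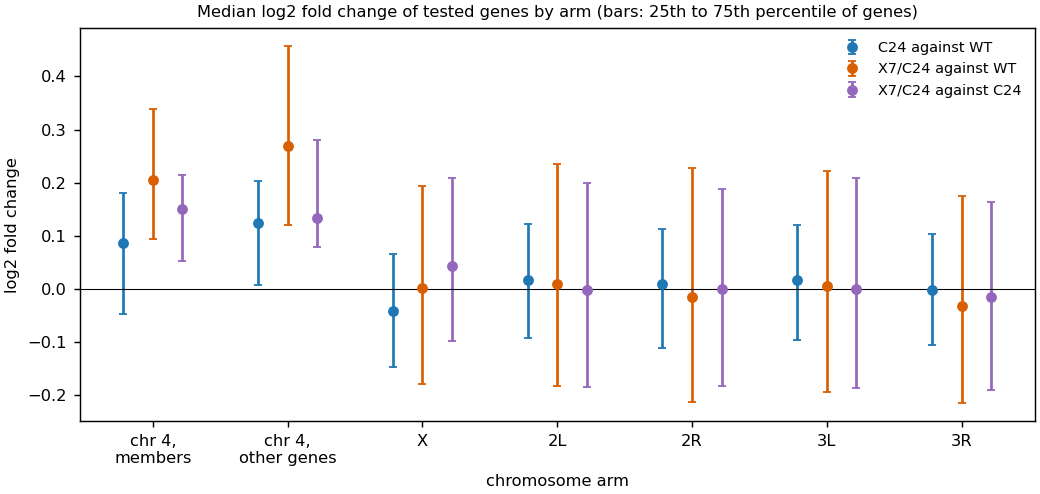
Median log2 fold change of the tested genes of each chromosome arm in the 3 comparisons (vertical axis; bars span the 25th to the 75th percentile of genes, not an error). The fourth chromosome is split into the 41 listed genes and the others. Its medians in X7/C24 against WT were 0.20 and 0.27, and those of the 5 large arms lay between -0.03 and 0.01.

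A few of these other genes changed far more than any listed gene. CG33978 (chromosome 4 from 157575 to 175639) was at 35.2, 27.6 and 32.5 CPM in WT, 37.3, 28.7 and 42.7 in C24, and 126, 145 and 131 in X7/C24. Its log2 fold change was 2.07 (SE 0.0922, adjusted p = 6.74e-06) against WT and 1.89 against C24, but X7/C24_4 held 14.3 CPM, below WT_4 to WT_6. CG31997, annotated from 154654 to 156060 on the same strand, had a log2 fold change of 1.52 (SE 0.122, adjusted p = 0.000106) and CG1674 one of 0.81 (SE 0.0936, adjusted p = 0.000457). CG32850, the ring finger gene Rnf11, had a log2 fold change of 0.76, and Kif3C, a kinesin gene, had -0.04 against WT but was called at 0.62 against C24. Markers of some other tissues also differed between X7/C24_1 to X7/C24_3 and WT, though not all in the same direction. All 6 ring gland markers were called higher, with a sum of 47.8 to 97.1 CPM in WT, 670 to 1019 in these libraries and 98.8 in X7/C24_4. Of 5 hemocyte markers, 4 were called higher, with a sum of 81.8 to 119.6 CPM in WT, 159 to 318 in X7/C24 and 56.8 in X7/C24_4, and nimC1 had no count in WT_5. Of 5 imaginal disc markers, 3 were called higher, with a list median of 0.30 and sums of 400 to 440.0 CPM in WT, 447 to 480 in X7/C24 and 391 in X7/C24_4. This list cannot be read as a mark of disc tissue alone. Its most abundant gene, ap, was at 287 CPM in WT and was not called. The list summed to 8.87, 37.8 and 103 CPM in the pilot libraries C24_1, WT_2 and WT_1, where neuronal markers were also lowest. Of 8 muscle markers 3 were called higher, with sums of 50.6 to 62.4 CPM in WT, 76.8 to 107.7 in X7/C24 and 34.6 in X7/C24_4. Over all tested genes, 21.2% were called higher and 21.2% lower. Of 5 tested salivary gland markers 1 was called lower and 0 higher, with a list median of -0.76. No fat body marker (6 tested) or midgut marker (2 tested) was called, with list medians of 0.11 and -1.65. The part of these tissues in the levels of the chromosome 4 genes was not tested.

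Regulators of the fourth chromosome and of heterochromatin, which lie on other chromosomes, were read from a list of 12. In X7/C24 against WT 5 were called lower and none higher (3 and none by DESeq2, and 5 and none by limma-voom), with a list median of -0.10, where 21.2% of all genes were called lower. Pof itself was at 42.5, 42.7 and 41.8 CPM in WT and at 37.4, 37.8 and 37.6 in X7/C24_1 to X7/C24_3, without overlap and with a log2 fold change of -0.17 (SE 0.0476, adjusted p = 0.0202). In X7/C24_4, which was not in the fit, Pof was at 42.2 CPM, inside the WT range. The log2 fold change of egg was -0.25 (SE 0.0639, adjusted p = 0.0137). The others called were G9a, a histone H3 lysine 9 methyltransferase, with a log2 fold change of -0.49 (adjusted p = 0.00102), Su(var)3-7, a partner of HP1a, with -0.41 (adjusted p = 0.00405), and M1BP, listed as CG9797, a promoter-binding factor, with -0.15 (adjusted p = 0.0328). In X7/C24_4 M1BP was at 100.4 CPM, above its WT values of 96.2 to 97.6. There egg, G9a and Su(var)3-7 were at 111, 107 and 119 CPM, below all 3 WT libraries. The gene of HP1a had a log2 fold change of 0.12 and wde, the cofactor of egg, one of -0.11, and neither was called. None of the 12 was called by any of these tools in C24 against WT or in X7/C24 against C24 (1 and 0 at an unadjusted p under 0.05, and G9a at -0.49 in C24 with an adjusted p of 0.579).

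In some libraries the level of the listed genes followed transcript length. In C24_6 and in X7/C24_4, longer genes of the list were lower. Over the 41 genes the Spearman correlation of exon length with the deviation from the mean of the 9 libraries was -0.80 in C24_6 and -0.81 in X7/C24_4, and over 9328 tested genes it was -0.61 and -0.70. These are correlations across genes of 1 library, which are not independent replicates. The 17 genes of at least 6000 bp had median deviations of -0.33 in C24_6 and -0.76 in X7/C24_4, whereas the 9 genes under 3000 bp had 0.10 and 0.41. In the WT libraries the correlation over the list was 0.57 in WT_4, -0.49 in WT_5 and 0.45 in WT_6, and in C24_7 it was 0.68. bt, the longest at 28019 bp, had 14.6 CPM in C24_6 and 7.73 in X7/C24_4 against 23.4 to 36.7 in the 3 WT libraries, with WT_5 the lowest, and 30.8 and 40.8 in C24_5 and C24_7. The shortest gene, Arf102F at 930 bp, was higher in X7/C24_4, at 183 CPM, than in any of the 9 compared libraries.

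The comparisons were repeated after correction of every library for a smoothed trend on gene length. With the trend removed and X7/C24_4 included, a combination chosen after seeing the data, 11 of the 41 genes were called higher and ey lower against WT (15.9% and 13.4% of all genes), 9 of the 11 shared with the 20 called without that library, and the median was 0.20. With the trend removed and X7/C24_4 left out, 19 were called higher (24% of all genes) and ey lower (22.5%), 17 of the 19 shared, with a median of 0.19. In C24 against WT the same step gave a median of 0.16. Over the 18 alternatives tried for X7/C24 against WT, Arf102F, CG32000, Caps, Eph, MED26 and NfI were called higher in 17, Syt7 and unc-13 in 14 and CaMKII in 11, and ey was called lower in 15.

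**Figure D5:**
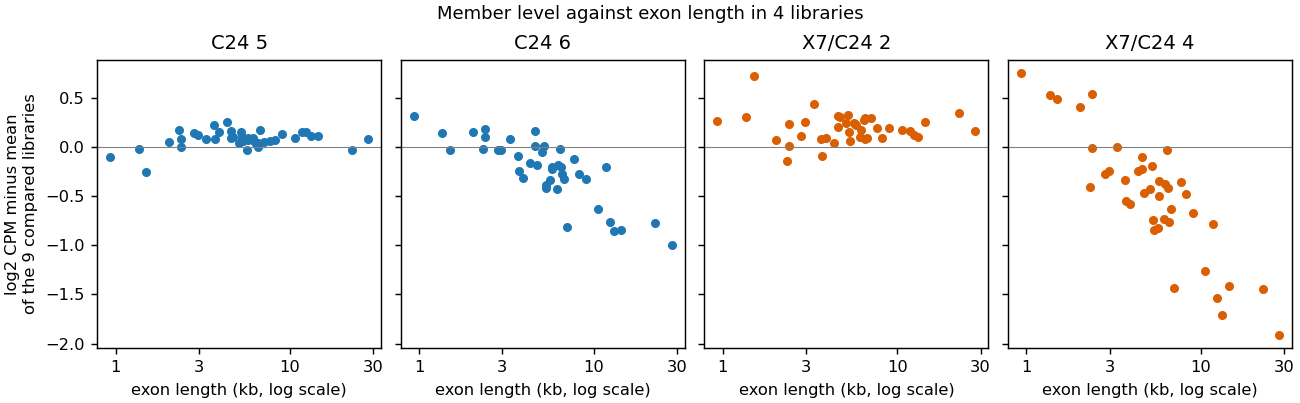
Level of the 41 genes in 4 libraries, as log2 CPM minus the mean of the 9 compared libraries (vertical axis), against the summed exon length of each gene in kb (horizontal axis, log scale). Each point is a gene. Long genes were low in C24_6 and in X7/C24_4, with Spearman correlations of -0.80 and -0.81, and in C24_5 and X7/C24_2 the correlations were 0.08 and 0.01.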

How the data were processed

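The data were mRNA-seq counts of 17 libraries (6 WT, 7 C24 and 4 X7/C24), each from a separate pool of dissected larval CNS. The authors filtered reads by quality, aligned read pairs to the BDGP5 genome, removed duplicates, and counted pairs per FlyBase gene without regard to strand, discarding pairs shared by overlapping genes. The deposited values used here are these raw whole-number counts. The normalized tables, which hold the counts divided by size factors, and a table of ratios from the authors' own comparison were not used. Chromosome and exon length came from the BDGP6 annotation, a later build than that of the counts. It matched 13153 of 13872 genes by ID and 276 by symbol, and 443 were not matched. Coordinates given are those of BDGP6.

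Tests were run on the counts with edgeR 4.0.16 in R 4.3.3 (TMM scaling, the filterByExpr filter, the quasi-likelihood test and a Benjamini-Hochberg threshold of 0.05), 3 against 3 libraries in each of 3 comparisons. The test was also run on simulated counts with known changes. These held no trend on gene length, so its calls under such a trend were not checked. CPM values were TMM-scaled, and deviations of single libraries used log2 CPM with a prior count of 2. Alternatives were DESeq2 1.42.0, limma-voom (limma 3.58.1), other scalings and filters, a joint fit, terms for the kit set and the replicate number, a trend on gene length removed, and libraries left out or added. Values in every library are given for up to 12 called genes in order of the X7/C24 change from WT and for the 2 most and 2 least changed genes per comparison. Other chromosome 4 genes are named where among the 3 largest changes. CG33521, CG1732, CG2219 and nimC1, and the genes beyond these rules, were named after their values were seen. The members and lists were chosen with earlier results of these data known. Sequencing rounds and kit sets are those given in the study's methods. Between replicate pools the p-values measure the spread within a round.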

Additional observations from a re-analysis of the deposited data

Results flagged for a closer look

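Over 78 sets of values, each of a genotype's 4, 6 or 7 libraries with the pilot libraries included, the highest or lowest library was compared with the rest of its group, and 27 of these stood apart by Dixon's criterion. Chance alone would mark about 1 set in 20.

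Most of these were low values in C24_1, a pilot library. There the 41 genes took 0.445% of the counts, and their median log2 difference from WT was -4.63. The CPM of single genes in C24_1 was 2.28 for Actbeta, 21.4 for CG11155, 21.8 for CaMKII, 17.6 for Caps, 23.9 for Eph, 9.67 for Mitf, 3.22 for NfI, 11.8 for Pur-alpha, 7.26 for Syt7 and 44.5 for pho. Kif3C and sv stood at 0.134 CPM there. ATPsyn-beta had its highest C24 value in the same library, 3643 CPM, and its highest WT value in WT_2, 3590 CPM. In WT_2 the lowest values of the WT group were those of Mitf, at 21.7 CPM, and pho, at 45.3 CPM. The pilot library WT_1 had the highest WT values of CG1674 (69.7 CPM), CG31997 (135.0 CPM) and yellow-h (47.3 CPM), and C24_3 the highest C24 value of CG32850 (100.4 CPM).

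X7/C24_4 was the lowest of the X7/C24 libraries for Actbeta (192 CPM, the others 252 to 256), CG33978 (14.3 CPM, the others 126 to 145), Hcf (467 CPM, the others 659 to 693), ey (55.9 CPM, the others 76.6 to 77.3) and unc-13 (636 CPM, the others 2038 to 2214).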

How the results depend on the processing

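Changes of the scaling between TMM, the size factors of DESeq2 and TMM without chromosome 4 genes, of the filter, of the tool and of the kit set term left the counts of called genes among the 41 within 1.5 times. Over all genes in C24 against WT, where edgeR called 15 higher and 22 lower, DESeq2 called 54 and 55 and the fit with the kit set term 4 and 7, and of the 12 regulators DESeq2 called 3 lower in X7/C24 against WT where edgeR called 5. In X7/C24 against WT, a joint fit of the 9 libraries called 13 of the 41 genes higher and 0 lower (15.1% and 14.8% of all genes). With X7/C24_4 included 0 were called higher and 0 lower (4.63% and 3.27% of all genes) and the median was 0.0817. With the length trend also removed, an alternative chosen after seeing the data, 11 were called higher (15.9% of all genes). Leaving out 1 library at a time gave 10 to 22 called higher, 0 to 2 lower and medians from 0.16 to 0.26. The fewest higher were 10 without X7/C24_2 (16.8% of all genes), 11 without X7/C24_1 (15.6%) and 13 without WT_6 (16%). Without WT_4, 14 were called higher (15% of all genes) and 0 lower (14.3%). Without WT_5, 22 were called higher (24.9% of all genes) and 2 lower (23.8%). Total-count scaling gave a median of 0.15 and 15 called higher (16.8% of all genes). It changed the split over all genes from 2044 higher and 2043 lower to 1621 and 2620. In C24 against WT, 8 were called higher with WT_5 and C24_6 left out (1.49% of all genes). With the length trend also removed, which was added later, 8 were called higher (1.48% of all genes). The medians were 0.18 and 0.21. The range over libraries left out singly was 0.04 to 0.16, with 0 called. At most 0.126% of all genes were called higher in these fits and 0.158% lower. In X7/C24 against C24, removal of the length trend gave 3 higher (Arf102F, Crk and ci) and 2 lower (Rfabg and bt) of the 41, smaller shares than the 15.3% and 13.7% of all genes, and a median of 0.04. Single libraries left out gave 0 to 4 higher, 0 to 1 lower and medians of 0.04 to 0.18. The extremes were 4 higher and 1 lower without C24_6 (15.3% and 12.9% of all genes). X7/C24_4 included gave a median of -0.003585, the only median to change sign, and with the length trend also removed 2 higher (7.66% of all genes). Total-count scaling gave a median of 0.07 and turned 718 higher and 562 lower of all genes into 517 and 636. The causes were not tested.

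Replicate numbers 5 and 6 are shared by WT and C24, and the correlations of the deviations of same-numbered libraries were -0.15 and -0.22. Length trends of single libraries also enter these values, so they cannot settle whether the numbers pair the samples. With the replicate block the median of C24 against WT was 0.06, with 0 called (0.0426% of all genes higher and 0.106% lower). X7/C24 shared no number with the WT or C24 libraries compared, so no block could be made there. For single named genes in X7/C24 against WT, 374 results kept their side of the threshold, 55 lost it and 3 gained it. With 3 pools a group, small differences such as the median of C24 against WT could not be resolved for single genes.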

Other observations

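The pilot round entered no comparison, and the level of the listed genes varied widely within it. Their share of counts was 1.11%, 0.505% and 1.48% in WT_1 to WT_3 and 0.445%, 1.98%, 1.52% and 1.93% in C24_1 to C24_4. The median log2 differences from the later WT libraries were -1.36, -3.46 and -0.54 in WT and -4.63, -0.15, -0.54 and -0.13 in C24. The 3 lowest libraries, C24_1, WT_2 and WT_1, also had the lowest summed levels of neuronal markers, at 51.1, 151 and 452 CPM, where the other 4 pilot libraries had 3081 to 3918. Fat body markers summed to 4164, 2966 and 6898 CPM in these 3 libraries and to 23.1 to 258 in the other 4. The part of tissue in these levels was not tested.

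In C24_1, WT_2 and WT_1 only 2, 1 and 8 of the 41 genes exceeded their mean in WT_4 to WT_6. The energy gene ATPsyn-beta was among them, with 3643 CPM in C24_1, 3590 in WT_2 and 1751 in WT_1 against 1117 to 1212 in WT_4 to WT_6. bt was at 144 CPM in C24_1, against 23.4 to 36.7 in WT_4 to WT_6. In WT_1 yellow-h was at 47.3 CPM, against 3.69 to 4.05 in WT_4 to WT_6. The Spearman correlation of exon length with the level of the listed genes, across the 41 genes, was negative in all 7 pilot libraries, at -0.37, -0.37 and -0.79 in WT_1 to WT_3 and -0.33, -0.69, -0.78 and -0.80 in C24_1 to C24_4.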
